A study of Mus musculus with 6 samples.

Results

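The 48 genes described here encode the channels, pumps, exchangers and store proteins that move calcium, together with the calmodulin-dependent protein kinases (CaM kinases) that read it, the transcription factor CREB1 and phospholipase C gamma 1. They were chosen by gene name from the 37074 gene names on the array, and all 48 had at least 1 of the 56605 distinct probes, 131 probes in all. Calcium enters the cytoplasm from the endoplasmic reticulum through IP3 and ryanodine receptors, and from outside through ORAI channels that the STIM sensors open once the store is empty, through voltage-gated channels and through TRP channels. SERCA pumps return it to the store, while plasma membrane pumps and sodium-calcium exchangers export it. In osteoclasts, the multinucleated cells that resorb bone, RANKL triggers calcium oscillations that activate calcineurin and NFATc1, and CaM kinases act on CREB.

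The study asked what the loss of Ano1, a calcium-activated chloride channel, does in osteoclasts. Bone marrow cells from mice aged 6 to 8 weeks were kept for 1 day with 10 ng/ml of M-CSF, a macrophage growth factor, and then with more of it (30 ng/ml) plus RANKL, the osteoclast differentiation factor, at 50 ng/ml for 5 days. RNA of osteoclasts from 3 mice per group, per the study's methods, was read on one-colour arrays. Both groups carried floxed Ano1 alleles. The controls were Ano1fl/fl littermates without Cre, and the knockout group, Ctsk-Cre;Ano1fl/fl, also carried Cre under the cathepsin K promoter, which is active in osteoclasts, so deletion is limited to cells in which that promoter has been on.

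The targeted gene could not check the labels. Ano1 had 1 probe, which the scanner marked as well above background on 0 of 6 arrays, with a processed signal of 3.22 to 3.91 on the Ano1fl/fl arrays and 3.23 to 3.81 on the Ctsk-Cre;Ano1fl/fl arrays. The study's own measurements had osteoclast markers lower in knockout osteoclasts, opposite to the arrays as labelled. Its marker genes Nfatc1, Acp5, Ctsk and Mmp9 were all called higher on the arrays labelled Ctsk-Cre;Ano1fl/fl, by log2 differences of 0.53, 0.84, 3.17 and 4.36. The reason was not tested. Directions below therefore follow the labels, and "the knockout-labelled arrays" means those labelled Ctsk-Cre;Ano1fl/fl. Each array had 33480 to 34951 of 59305 transcript spots well above background and 0 saturated spots. Correlations of all probes were 0.9945 to 0.9969 within a group and 0.947 to 0.9507 between groups. Levels are log2 processed signals after quantile normalization, and differences are knockout-labelled minus Ano1fl/fl on that scale. A gene was read by its brightest probe and called at an adjusted p under 0.05 in limma, a linear model with a shared estimate of spread, with Benjamini-Hochberg adjustment over all 20645 genes tested.

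Markers of several cell types differed between the groups. Of 15 osteoclast markers, 14 were higher and 1, Tnfrsf11a, was lower on the knockout-labelled arrays, and their summed signal was 229600 to 247100 on the Ano1fl/fl arrays and 632300 to 715100 on the knockout-labelled ones. Of 16 stromal cell and osteoblast markers, 15 were tested, 11 were higher and 2 lower, with summed signals of 4290 to 5148 and 65330 to 106500. Pdgfra and Lum were not well above background on any Ano1fl/fl array. Of 7 smooth muscle markers tested 5 were higher and 1 lower, with summed signals of 23850 to 25570 and 38640 to 45440. Macrophage markers were mixed, with 2 higher and 5 lower of 13 and sums of 654100 to 697800 and 757000 to 862600. Neutrophil markers were lower for 7 of 10 and higher for 1, with sums of 320300 to 337300 and 212500 to 264900. Skeletal muscle markers, 5 tested of 12, gave 1 higher and 1 lower and sums of 1332 to 2200 and 713 to 748, with Ckm, Myh1, Myh2, Actn3 and Myog well above background on 0 of 6 arrays. Of 8 neuronal markers 3 were tested and 1 was lower, with sums of 1119 to 1221 and 807 to 923. In such bulk samples fewer cells of a type and less RNA per cell cannot be told apart, and the part of these cell type differences in the results below was not tested.

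**Figure D1:**
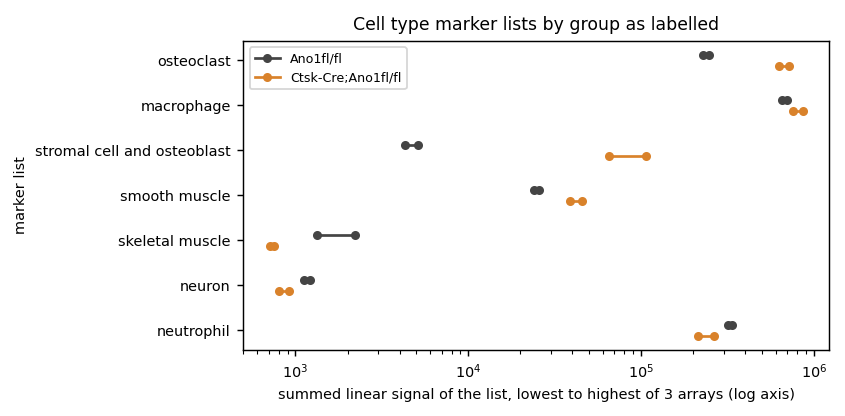
Summed linear signal (log axis) of each marker list, as the lowest to the highest of the 3 arrays of each group as labelled, joined by a line. The osteoclast and the stromal cell and osteoblast lists lie higher on the Ctsk-Cre;Ano1fl/fl arrays, and the neutrophil list lies lower.

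Calcium genes changed in both directions, at a share near that of all genes. Of the 48 members 39 were tested, 11 were higher, 10 were lower and 18 were not called, which is 53.8% called beside 52.4% of all genes tested (23.4% higher and 29.0% lower). Without Ano1fl/fl replicate 1 or 3, 6 members were called lower (15.4%), beside 24.9% and 24.6% of all genes. With the mean of all probes per gene 9 were higher (23.1%) and 16 lower (41%), beside 22.1% and 30.5% of all genes in that setting. Past 2-fold, 4 were higher (Cacna1s, Camkk1, Trpm4 and Itpr2) and 1 was lower (Slc8a1), or 12.8% of the tested members beside 17.1% of all genes (9.88% higher and 7.19% lower). The count past 2-fold lower was 3 under 75th percentile scaling and under median centring, where Cacnb3 and Trpc6 joined Slc8a1. It was 0 after normexp background correction and in the deposited value table, and 2 without Ano1fl/fl replicate 2 or knockout-labelled replicate 1 or 2. The count past 2-fold higher was 3 after normexp correction, with Trpm4 at 0.9991, and 3 with the mean of all probes, with Itpr2 at 0.70. The median difference of the tested members was 0.05, and that of all genes was -0.06. Both groups' arrays lay apart without overlap for 24 of 39 members, or 61.5%, beside 64.0% of all genes tested. Signal was well above background on all 6 arrays for 38 members and on none for Ryr2, Ryr3, Atp2b2 and Trpv5. The filter on dim probes also left out Atp2b4, Cacna1c, Cacnb4, Trpc1 and Camk4.

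**Figure D2:**
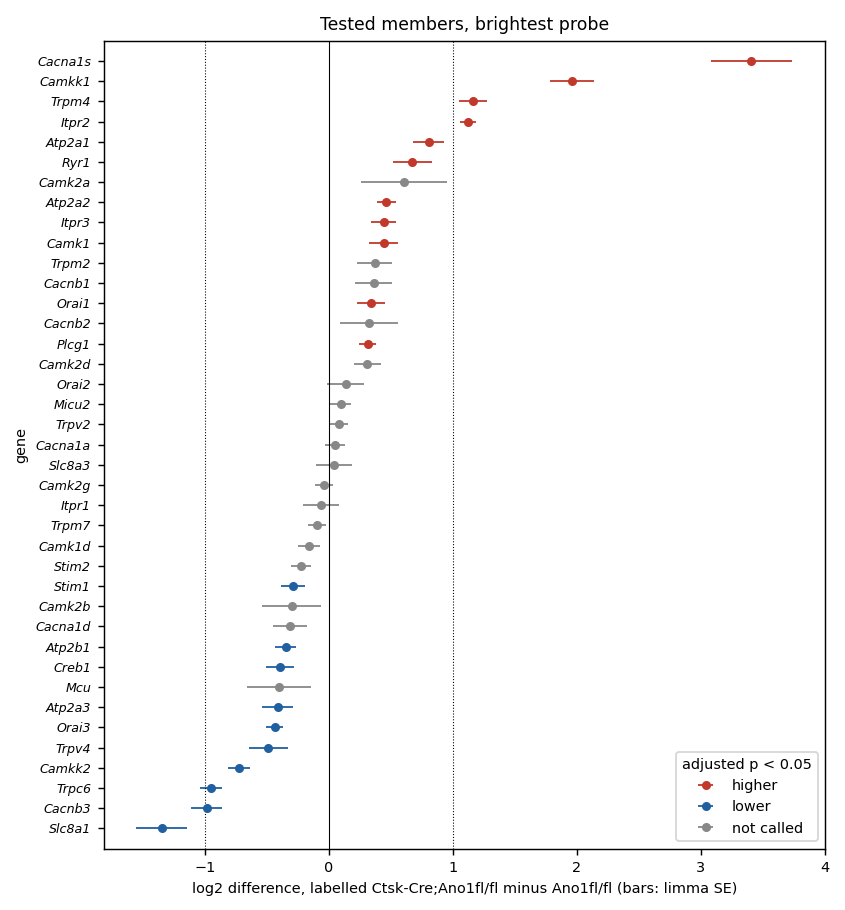
Log2 difference (knockout-labelled minus Ano1fl/fl) of the 39 tested members by brightest probe, with limma standard errors as bars and dotted lines at 2-fold. Of these, 11 are called higher and 10 lower, and Cacna1s stands farthest from 0 at 3.41.

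The first 30 bases of the 60-base probes behind the 5 members past 2-fold, read from the array files, are given so that each value can be tied to its target. They carry no marked part and are in lower case. Positions are mm9, as the array files give them: Cacna1s chr1:138016020-138016079 on the plus strand, Camkk1 chr11:72855450-72855509 on the plus strand, Trpm4 chr7:52558927-52558986 on the minus strand, Itpr2 chr6:146060030-146060089 on the minus strand and Slc8a1 chr17:81844210-81844269 on the minus strand. Exon and intron positions were not looked up.
Cacna1s: cacaaaggcctgatcggtgccagggtctgt
Camkk1: tttggttggctttggttgtgattgtagcac
Trpm4: caagcgacacaactggtggccttatcctca
Itpr2: aaacaaccaagtgccaagatgctgagccat
Slc8a1: aaagagtgcagtttctcccttgtgcttgag

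By their brightest probes, 3 of 4 tested release channels of the store were higher, where 23.4% of all genes were, and Itpr1 was not called. Itpr2, an IP3 receptor, read 11.94, 11.87 and 11.96 on the Ano1fl/fl arrays and 13.09, 13.04 and 13.01 on the knockout-labelled arrays. The groups did not overlap, and the difference was 1.12 ± 0.07 (SE), or 2.18-fold, with a limma adjusted p of 7.18e-05. Of its 3 other tested probes 2 were higher, at 0.77 and 1.13, and 1 was not called at -0.21, so that the mean of its probes was 0.70 (limma adjusted p = 0.00142). Itpr3, another IP3 receptor, read 11.53, 11.81 and 11.72 against 12.15, 12.01 and 12.22, without overlap and 0.44 ± 0.10 higher in the mean (limma adjusted p = 0.0121). Itpr1, also an IP3 receptor, read 10.66, 10.67 and 10.85 against 10.72, 10.38 and 10.89, a difference of -0.07 (limma adjusted p = 0.724), by its brightest probe. Of its 3 dimmer probes 2 were lower, both at -1.07 (limma adjusted p over all probes 0.00237 and 0.000429), and the mean of all its probes was lower at -0.61 (limma adjusted p = 0.00548). Ryr1, the ryanodine receptor best known from skeletal muscle, was dim but measured on all 6 arrays, at 7.81, 7.88 and 7.30 against 8.28, 8.37 and 8.36. That was 0.67 ± 0.16 higher (limma adjusted p = 0.014) without overlap, and its second probe rose by 0.69. Plcg1, an enzyme that makes IP3, was higher by 0.31 ± 0.07 (limma adjusted p = 0.0106), at 8.64, 8.72 and 8.70 against 9.04, 9.03 and 8.92. With all its probes averaged that difference was 0.15 (limma adjusted p = 0.303).

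Store-operated entry genes moved little and in different directions. Orai3, a pore subunit, was lower on every knockout-labelled array, at 12.51, 12.54 and 12.52 against 11.99, 12.14 and 12.12, a difference of -0.44 ± 0.07 (limma adjusted p = 0.00294). Orai1, the main pore subunit, was called higher at 0.34 ± 0.11 (limma adjusted p = 0.0434), with 10.50, 10.25 and 10.15 against 10.72, 10.66 and 10.53. Stim1, the store sensor, was called lower at -0.29 ± 0.10 (limma adjusted p = 0.0426), with 12.26, 11.98 and 12.003 against 11.73, 11.80 and 11.83. The groups did not overlap for any of these genes, but the calls of Orai1 and Stim1 were narrow. Leaving out 1 array moved the adjusted p of Stim1 to 0.0544 to 0.114 for each of the 6 arrays. For Orai1 it rose to 0.0521 to 0.121 without any one of 5 arrays, all but Ano1fl/fl replicate 1. Stim2, at -0.22 (limma adjusted p = 0.0601), and Orai2, at 0.14 (limma adjusted p = 0.479), were not called. Stim2 was called in 6 of 18 alternatives, with a lowest adjusted p of 0.0173 under median centring.

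The pumps that refill the store split by gene. Atp2a2, the widely expressed SERCA, read 11.73, 11.73 and 11.59 against 12.16, 12.21 and 12.07, 0.46 ± 0.08 higher (limma adjusted p = 0.00357). Atp2a1, the SERCA of fast skeletal muscle, was dim and read 5.57, 5.48 and 5.54 against 6.59, 6.23 and 6.17, 0.80 ± 0.12 higher (limma adjusted p = 0.0026). Atp2a3, the SERCA of blood cells, was lower at -0.42 ± 0.12 (limma adjusted p = 0.0317), with 9.68, 9.82 and 9.82 against 9.45, 9.11 and 9.52. None of the 3 pumps overlapped between groups. The call of Atp2a3 was lost without any one of Ano1fl/fl replicates 1 to 3 or knockout-labelled replicate 1 (adjusted p 0.0503 to 0.0939).

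Export genes were lower where they were called. Slc8a1, the sodium-calcium exchanger known from heart, read 7.64, 7.32 and 7.36 on the Ano1fl/fl arrays and 5.73, 6.48 and 6.05 on the knockout-labelled arrays. It was lower by 1.35 ± 0.20 without overlap (limma adjusted p = 0.00233), from 1 of its 4 probes, the others being too dim to test. That probe is named for a non-coding RefSeq transcript. The difference was -0.87 at its smallest and -1.55 at its largest over the alternatives, and it fell short of 2-fold in the deposited value table and after normexp background correction. Atp2b1, a plasma membrane calcium pump, was lower at -0.35 ± 0.08 (limma adjusted p = 0.0151), with 12.02, 11.99 and 12.19 against 11.70, 11.80 and 11.65. Its second probe was lower too, at -0.49. The call of Atp2b1 was lost with the replicate number as a block in the model (limma adjusted p = 0.0538). Slc8a3 differed by 0.04 (limma adjusted p = 0.828). Atp2b4 was not well above background on any Ano1fl/fl array and was so on 1 of 3 knockout-labelled arrays, so no fold is given.

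Voltage-gated channels held the largest change. Cacna1s, the pore of the skeletal muscle L-type channel, read 5.22, 5.45 and 5.44 on the Ano1fl/fl arrays and 8.74, 8.11 and 9.48 on the knockout-labelled arrays. All 3 knockout-labelled arrays were above all 3 controls, where the gene was dim, with processed signals of 35.4 to 51.8. The group means differed by 3.41 ± 0.33 or 10.6-fold (limma adjusted p = 0.000427), from the only probe of that gene. The difference ranged from 2.27 with normexp background correction to 3.74 without knockout-labelled replicate 2, and was 2.65 in the deposited value table, with the call kept in each alternative. Among the marker lists above, the skeletal muscle, neuronal and neutrophil sums were lower on the knockout-labelled arrays and the other sums were higher. Only 5 of 12 skeletal muscle markers were tested, with 1 higher and 1 lower. The part of any cell type in the Cacna1s difference was not tested. Cacnb3, a beta subunit that carries pore subunits to the membrane, was lower at -0.99 ± 0.13 (limma adjusted p = 0.00122), with 8.10, 8.005 and 8.06 against 7.33, 7.01 and 6.87 and no overlap. Cacna1a, Cacna1d, Cacnb1 and Cacnb2 were not called, with differences from -0.32 to 0.36, though Cacnb1 was called without Ano1fl/fl replicate 3 (adjusted p = 0.0237). Cacna1c, the cardiac and smooth muscle pore, was well above background on 1 of 3 knockout-labelled arrays and on no Ano1fl/fl array, and no fold is given.

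TRP channels moved in both directions. Trpm4, a cation channel that calcium opens, read 7.82, 8.05 and 7.69 against 9.12, 9.03 and 8.89, 1.16 ± 0.11 higher (limma adjusted p = 0.000458). Its other probe was not well above background on any Ano1fl/fl array and was at least 1.36-fold higher, a bound that sets the knockout-labelled mean against the lowest level well above background. Trpc6, a channel that diacylglycerol opens, read 7.39, 7.38 and 7.52 against 6.43, 6.62 and 6.39, a difference of -0.95 ± 0.09 (limma adjusted p = 0.000375). Neither gene overlapped between groups. Trpv4, a channel that osmotic and mechanical stimuli open, was called lower at -0.49 ± 0.16 (limma adjusted p = 0.0391), with 9.95, 9.48 and 9.76 against 9.40, 9.31 and 9.01. Its call was lost without any one of Ano1fl/fl replicates 1 and 3 or knockout-labelled replicates 2 and 3 (adjusted p 0.0719 to 0.106). Trpv2, Trpm2 and Trpm7 were not called, at 0.08, 0.37 and -0.10, and neither were the mitochondrial uniporter genes Mcu (-0.41) and Micu2 (0.09). Trpm2 was called in 4 of 18 alternatives, with a lowest adjusted p of 0.029, among them the one without Ano1fl/fl replicate 3 (adjusted p = 0.0435).

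**Figure D3:**
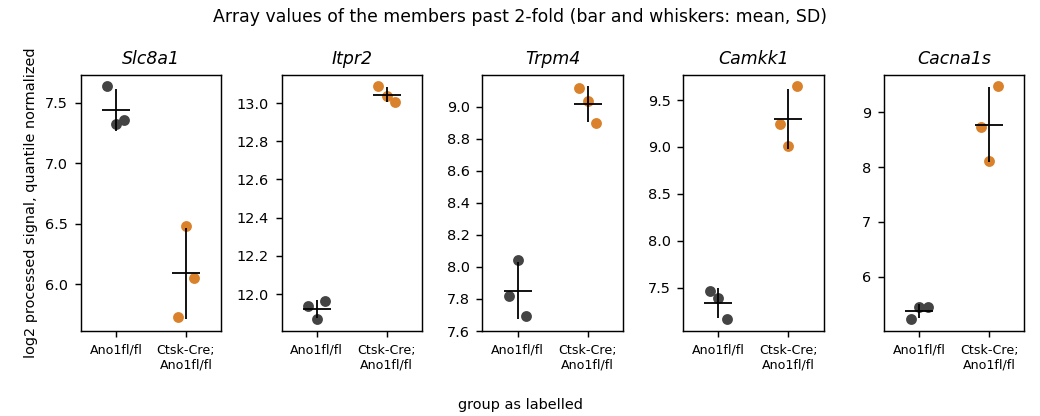
Log2 processed signal of the 5 members past 2-fold on each array (points) by group as labelled, with the mean and SD of 3 arrays. Groups do not overlap in any panel, and the vertical axes differ between genes and do not start at 0.

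Kinases upstream of CaM kinases moved in opposite directions. Camkk1, a kinase that phosphorylates CaM kinases I and IV, read 7.47, 7.39 and 7.16 on the Ano1fl/fl arrays and 9.24, 9.01 and 9.65 on the knockout-labelled ones, 1.96 ± 0.18 higher or 3.89-fold (limma adjusted p = 0.000333). Camkk2, its paralog, read 14.23, 14.09 and 14.16 against 13.50, 13.50 and 13.29, a difference of -0.73 ± 0.09 (limma adjusted p = 0.000995). Groups did not overlap for either gene, and all 5 Camkk2 probes were called lower, from -0.60 to -1.43. Camk4, the kinase that the study places upstream of CREB, was not well above background on any Ano1fl/fl array and was so on 1 of 3 knockout-labelled arrays, and was not tested. Its log2 levels were 3.495, 2.85 and 3.67 against 3.41, 4.19 and 4.19. The study read this kinase as phosphorylated protein on western blots, which RNA levels do not measure. None of the 4 CaM kinase II genes was called, with differences from -0.30 for Camk2b to 0.61 for Camk2a and with Camk2g at -0.04. Camk2a was called in 1 of 18 alternatives, without knockout-labelled replicate 1 (adjusted p = 0.0217). Camk2d was called in 4 of 18, with a lowest adjusted p of 0.0364, among them the one without Ano1fl/fl replicate 2 (adjusted p = 0.0425).

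Camk1 and Creb1 had probes called in opposite directions, so no single direction describes them. By their brightest probes, Camk1 is counted among the 11 members higher and Creb1 among the 10 lower. For Camk1 the brighter probe read 10.21, 10.08 and 10.10 against 10.72, 10.65 and 10.33, a difference of 0.44 ± 0.12 (limma adjusted p = 0.0215). The other probe read 8.91, 9.15 and 9.33 against 8.34, 8.57 and 8.22, a difference of -0.75 ± 0.14 (limma adjusted p over all probes = 0.00552). For Creb1, a transcription factor that CaM kinases phosphorylate, the brightest probe read 10.57, 10.24 and 10.47 against 9.93, 10.01 and 10.14, at -0.40 ± 0.11 (limma adjusted p = 0.0242). The probe at base 1931 gave 0.31, that at base 1184 gave -0.08, and the dimmer ones -1.39 and -0.63. Calls of the brightest probes were lost for Camk1 without any one of Ano1fl/fl replicates 2 and 3 or knockout-labelled replicates 1 and 2 (adjusted p 0.0622 to 0.0695). For Creb1 this held without Ano1fl/fl replicate 1 or 3 or knockout-labelled replicate 1 or 2 (adjusted p 0.0646 to 0.0736). The first 30 bases of these probes are printed because the probes read different sites, each named by its first base in the transcript that the array files give. The Creb1 probes at 5651, 1931, 1184 and 8359 lie on 1 RefSeq mRNA, and that at 491 on an Ensembl transcript. The Camk1 probe at 866 lies on a RefSeq mRNA and that at 1137 on an Ensembl transcript.
Camk1, 866: aaagatttcatacgacatttgatggagaaa
Camk1, 1137: gtggtttgaacacacatgtaggcaaaacac
Creb1, 5651: cagacagactttaacaaggaccagataaca
Creb1, 1931: ttcattcagttctgtgtgttcagcagtttg
Creb1, 1184: ccaaaacaaaacattgattgaggagctaaa
Creb1, 491: gagtatgttgtatctgcatagttctgttat
Creb1, 8359: ggcaaccagagtctgccttctgtaaattga

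Across all probes more members pointed down than by brightest probe. Of 87 tested member probes 17 were higher and 32 lower, or 56.3% called beside 52.4% of all 31848 probes (21.8% higher and 30.6% lower). Besides Itpr1, described above, Trpv2, Trpm7, Camk1d, Mcu, Stim2 and Cacna1d had a dimmer probe called lower while the brightest was not called. After these values were seen, probes were split by whether their accessions include a RefSeq mRNA. Of 66 member probes with one, 15 were higher (22.7%) and 19 lower (28.8%), beside 26.0% and 27.1% of all such probes. Of 21 without, 2 were higher (9.52%) and 13 lower (61.9%), beside 14.3% and 36.9% of all such probes. The median level of the member probes was 8.14 with a RefSeq mRNA and 6.51 without. Over 2424 transcripts with tested probes at least 1000 bases apart, the difference at the 5′ probe was below that at the 3′ probe in 59%, with a median of -0.08 between them. Among 14 member transcripts it was below in 8, with a median of -0.21. The part of transcript kind, brightness and position in the split was not tested.

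**Figure D4:**
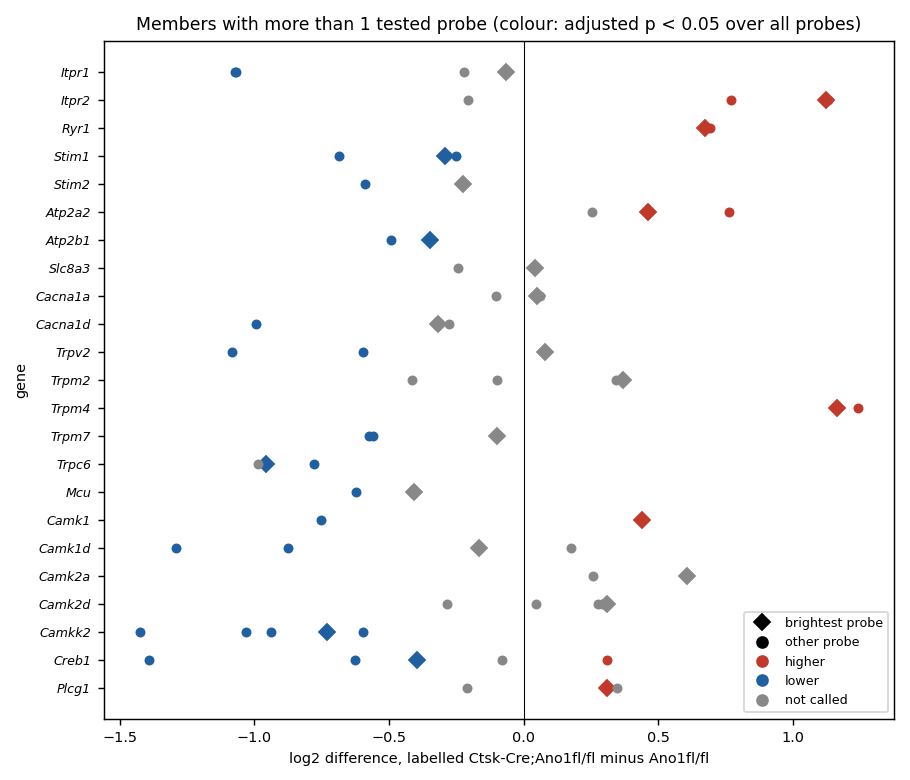
Log2 difference (knockout-labelled minus Ano1fl/fl) of every tested probe for the 23 members with more than 1, with diamonds for the brightest probe and colours for calls over all probes. Camk1 and Creb1 have calls on both sides of 0, and all 5 Camkk2 probes lie below 0.

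Other calcium genes, listed with the members known, also changed in both directions. Of 112 listed genes 111 had a probe and 69 were tested, of which 18 were higher and 11 lower, or 42% called beside 52.4% of all genes. The largest differences were in Plcd3, a phospholipase C, at 1.92 ± 0.11 (limma adjusted p = 6.4e-05), Mrvi1 (now Irag1), an IP3 receptor partner, at -1.63 ± 0.12 (limma adjusted p = 0.000139), and Trpm1, at -1.56 ± 0.14 (limma adjusted p = 0.000296). Among the mitochondrial genes 4 of 10 were higher, led by Letm1 at 0.72 and Vdac1 at 0.34, and 0 were lower. Of 15 tested store buffers and junction proteins 4 were higher, led by Hrc at 0.96 and the calcium-binding chaperone Calr at 0.67, and 2 were lower, Mrvi1 and Fkbp1b at -0.51. Other voltage-gated channel genes gave 3 higher of 7, led by Cacng7 at 0.96 and the auxiliary subunit Cacna2d1 at 0.92. TRP, lysosomal and mechanosensitive channels gave 3 higher of 10, led by Mcoln2 at 0.93 and Piezo1 at 0.38, and 5 lower, led by Trpm1 and the endolysosomal Tpcn1 at -0.94. Calmodulin and CREB partners gave 3 higher of 16, led by Crtc2 at 0.34 and Creb5 at 0.32, and 2 lower, Calm2 at -0.38 and Calm3 at -0.23. Of 8 other phospholipase C genes, Plcd3 was higher and Plcb3 lower at -0.60, and of 3 other pumps and exchangers Slc24a3 was lower at -0.39.

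Promoters were looked at only as sequence. RefSeq sequences of build GRCm38.p6 held the 250 bases before the gene start for 40 of the 48 members. The cAMP response element TGACGTCA, which reads the same on both strands, was in 0 of these 40 and in 1.62% of all 27025 promoters. The AP-1 letters TGACTCA, on either strand, were in 1 (2.5%) beside 4.43%, and the NFAT core letters TGGAAA, on either strand, in 4 (10%) beside 18.7%. A missing match says only that these letters are not in this window. The windows of the 2 genes that rose most and of the gene that fell most are printed 5′ to 3′ on the gene's strand. Capitals would mark a match, and there is none. They lie at chr1:136052561-136052810 (plus strand) for Cacna1s, chr11:73018738-73018987 (plus strand) for Camkk1 and chr17:81738388-81738637 (minus strand) for Slc8a1.
Cacna1s: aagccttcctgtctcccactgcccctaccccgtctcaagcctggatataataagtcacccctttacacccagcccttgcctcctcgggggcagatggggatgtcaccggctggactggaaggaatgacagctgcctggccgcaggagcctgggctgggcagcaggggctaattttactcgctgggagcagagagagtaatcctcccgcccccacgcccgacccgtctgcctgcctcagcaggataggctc
Camkk1: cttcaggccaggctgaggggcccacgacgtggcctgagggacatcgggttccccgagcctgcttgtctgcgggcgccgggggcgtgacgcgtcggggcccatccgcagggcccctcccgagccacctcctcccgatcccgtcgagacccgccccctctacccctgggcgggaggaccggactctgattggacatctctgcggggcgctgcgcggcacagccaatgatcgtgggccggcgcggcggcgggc
Slc8a1: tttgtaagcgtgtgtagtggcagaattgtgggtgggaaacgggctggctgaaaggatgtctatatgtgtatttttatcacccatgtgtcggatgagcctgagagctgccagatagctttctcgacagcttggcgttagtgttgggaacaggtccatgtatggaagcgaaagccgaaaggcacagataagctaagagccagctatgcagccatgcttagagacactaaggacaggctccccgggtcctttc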

How the data were processed

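The members and gene lists were chosen with earlier results of these data known. Expression was read on Agilent one-colour mouse arrays (3 per group, 1 slide and 1 scan). The authors deposited scanner text files made with Agilent Feature Extraction 10.7.1.1, per the file headers, whose processed signal intensity is background-corrected, and a value table that equals the spot median intensity of the same arrays. Here the processed signal was averaged over spots of a probe, taken to log2 and quantile normalized, as the methods name. A gene was its probe with the highest mean over 6 arrays, tested when well above background on all 3 arrays of a group, with limma 3.58.1 in R 4.3.3 and Benjamini-Hochberg adjustment. Sequences and figures used Python 3.11.15. Genes named are the members, Ano1, some markers, and per other list the 2 largest called rises and falls with groups apart. The scripts were tested on simulated data. With 3 arrays per group, small differences can be missed. Alternatives covered scaling, background correction, the value table, filters, probe choice, test, replicate block and each array left out.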

Additional observations from a re-analysis of the deposited data

How the results depend on the processing

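Of the 21 called members, 13 were called the same way under every one of the 18 alternatives in which they were tested. Of 701 member results over all alternatives, 631 kept their side of the threshold with no reversal of a call (5 uncalled members changed sign among them). A further 47 lost a call and 21 gained one with the sign kept. The other 2 changed both sign and call status with the mean of all probes, and no call turned into the opposite call. Trpv2, not called above, was called lower at -0.53, and Camk1, called higher above, was not called at -0.16. The mean of all probes also moved the members lower from 10 to 16 (41%, beside 30.5% of all genes) and the median difference from 0.05 to -0.10. The methods' t-test after Benjamini-Hochberg gave 9 members higher (23.1%) and 6 lower (15.4%), beside 21.4% and 25.5% of all genes. At an unadjusted p under 0.05 it gave 11 higher (28.2%) and 10 lower (25.6%), beside 25.2% and 30.7%. Members past 2-fold and lower, 1 in the report, were 3 under 75th percentile scaling and under median centring, 0 after normexp and in the value table, and 2 without a filter on dim probes. At 1.5-fold there were 4 lower, and at 3-fold there were 2 higher and 0 lower. Leaving out each array gave 9 to 11 members higher (23.1% to 28.2%) and 6 to 8 lower (15.4% to 20.5%). The lower count was 6 without Ano1fl/fl replicate 1 or 3. Over all genes 19.7% to 21.1% were higher and 23.7% to 25.3% lower in these settings. Past 2-fold, 4 members were higher and 1 to 2 lower (2 without Ano1fl/fl replicate 2 or knockout-labelled replicate 1 or 2). The median difference was 0.01 to 0.08. The labels share replicate numbers between groups without saying that these pair the samples, and same-numbered arrays deviated with correlations of 0.004, -0.062 and -0.081. With the replicate number as a block 11 members were higher (28.2%) and 6 lower (15.4%), beside 20.3% and 24.6% of all genes. Stim1, Atp2a3, Atp2b1 and Creb1 were then no longer called (adjusted p 0.0509 to 0.0977). The causes of these shifts were not tested. Precision is limited by 3 arrays per group and, for dim genes, by signal near background.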
